A study of Mus musculus with 5 samples.

Results

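Described here are 8 myeloid and inflammatory genes in a chromatin binding study of Nr1d1 in mouse Th1 cells: Cebpa, Tlr4, Adgre1, Cx3cr1, Mmp9, Ccl2, Nlrp3 and Nos2. Each gene was looked up as the nearest gene of a peak in the 3 deposited annotation tables, which name 12195 genes in all. Only Cebpa, Tlr4 and Adgre1 were found, with 19 of the 51163 table rows between them. The third table repeats the ChIP peaks that no IgG peak overlaps, so such a peak is counted more than once in these rows. The set was chosen by whether and where these deposited peaks lay, so the positions and numbers of the peaks are given as a description and without a test.

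Nr1d1, also called REV-ERBα, is a heme-binding nuclear receptor that represses transcription as part of the circadian clock. The study mapped it by ChIP-seq in T helper type 1 (Th1) cells, which were made in culture from naive CD4 T cells of C57BL/6 wild-type mice aged 4 to 6 weeks. They were activated through CD3 and CD28 with IFNγ and IL-12 present and IL-4 blocked by an antibody, were harvested after 3 to 4 days and were fixed in 1% formaldehyde for 30 minutes. All 5 libraries came from such cells: 3 Nr1d1 pull-downs, 1 input DNA and 1 IgG mock. The labels name the Nr1d1 antibody for all of them, so the mock and the input are known by their titles, and they do not say how many mice were used or whether libraries came from separate mice.

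There were 19586 deposited ChIP peaks and 17111 deposited IgG peaks, and the same input served for both calls. A ChIP peak without an IgG overlap of at least 1 bp is called ChIP-specific here, and 14471 peaks are of this kind. The remaining 5115 are called shared (26.1% of the ChIP peaks). The lists give each peak a length and a false discovery rate (FDR) but no read count, no height and no value for a single library, so that a peak has no replicate error and its depth is unknown. RNA was not measured, and the identity of the cells could not be checked against marker genes.

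Nr1d1 is known in macrophages for restraining inflammation. There it sits at enhancers near genes such as Mmp9 and Cx3cr1 and lowers their transcription, and it has been tied to repression of Ccl2, Nlrp3 and the response through Tlr4. Th1 cells are lymphocytes, and most of the 8 genes are better known from monocytes, macrophages and granulocytes than from T cells. Cebpa is a master transcription factor of myeloid development, and Tlr4 and Nlrp3 are sensors of bacterial products and of cell damage. Adgre1 (F4/80) and Cx3cr1 are surface proteins of macrophages and monocytes, while Ccl2, Mmp9 and Nos2 yield secreted or enzymatic products of inflammation.

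No peak of any kind covered the bases just before the start of the genes whose promoters could be read. RefSeq promoter entries (GRCm38.p6, the mm10 assembly) were matched for 3 of the 8 genes, Cebpa, Cx3cr1 and Nlrp3, and the 250 bases upstream of the start are shown 5′ to 3′ on the strand of the gene. Klf4 and Tlr2 are shown beside them because they were the genes of a wider myeloid list (below) with a promoter entry that a peak did cover. Capitals mark bases under a peak: in Klf4 those under both a ChIP and an IgG peak, in Tlr2 those under an IgG peak.
Cebpa, chr7:35119043-35119292, plus strand: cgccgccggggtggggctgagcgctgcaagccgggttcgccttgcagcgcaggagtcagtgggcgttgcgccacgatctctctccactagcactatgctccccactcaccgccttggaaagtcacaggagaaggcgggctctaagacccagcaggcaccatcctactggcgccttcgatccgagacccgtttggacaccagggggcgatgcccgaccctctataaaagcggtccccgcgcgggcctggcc
Cx3cr1, chr9:120068297-120068546, minus strand: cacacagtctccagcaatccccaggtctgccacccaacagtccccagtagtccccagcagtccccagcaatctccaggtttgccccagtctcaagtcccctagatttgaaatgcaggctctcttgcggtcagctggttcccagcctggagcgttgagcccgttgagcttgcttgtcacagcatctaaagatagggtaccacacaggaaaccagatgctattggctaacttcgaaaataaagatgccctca
Nlrp3, chr11:59541319-59541568, plus strand: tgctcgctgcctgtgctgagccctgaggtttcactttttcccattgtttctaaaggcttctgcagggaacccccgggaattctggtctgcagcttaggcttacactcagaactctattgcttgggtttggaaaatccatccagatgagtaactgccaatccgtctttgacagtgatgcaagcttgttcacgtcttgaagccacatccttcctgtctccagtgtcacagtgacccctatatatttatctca
Klf4, chr4:55532476-55532725, minus strand: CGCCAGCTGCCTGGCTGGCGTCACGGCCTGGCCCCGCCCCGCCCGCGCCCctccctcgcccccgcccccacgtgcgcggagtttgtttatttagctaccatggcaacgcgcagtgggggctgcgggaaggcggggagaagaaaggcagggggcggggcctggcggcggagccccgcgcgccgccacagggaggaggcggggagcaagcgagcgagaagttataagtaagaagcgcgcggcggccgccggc
Tlr2, chr3:83841609-83841858, minus strand: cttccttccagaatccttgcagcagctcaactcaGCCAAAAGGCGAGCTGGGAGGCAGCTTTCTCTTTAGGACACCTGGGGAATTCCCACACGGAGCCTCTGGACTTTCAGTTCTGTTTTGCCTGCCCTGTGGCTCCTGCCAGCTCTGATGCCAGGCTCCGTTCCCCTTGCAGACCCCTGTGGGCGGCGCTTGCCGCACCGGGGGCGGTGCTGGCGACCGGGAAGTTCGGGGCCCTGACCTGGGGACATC

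Base composition differed among these windows. The Cebpa window was 66.4% G or C with 22 CpG dinucleotides, the Klf4 window was 74.0% G or C with 32, and the Tlr2 window was 62.8% with 11. The windows of Cx3cr1 (53.6%, 4 CpG) and Nlrp3 (48.0%, 4 CpG) lay nearer to the medians of 52.4% and 6 CpG over the 32851 windows of the table. All of the Klf4 window was under a ChIP peak and 50 bases were under an IgG peak, while 216 bases of the Tlr2 window were under an IgG peak and 0 under a ChIP peak.

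The windows were searched on both strands for the nuclear receptor half-site AGGTCA, for the response element of REV-ERB and ROR receptors (RORE, here AANT followed directly by AGGTCA), for the RevDR2 repeat (AGGTCA, any 2 bases, AGGTCA), for the C/EBP palindrome TTGCGCAA and for an NF-κB site (GGGAC followed directly by TTTCC). The RORE and RevDR2 contain the half-site and so overlap with it. Over all 32851 windows these letters were found in 14.0%, 0.177%, 0.00913%, 0.164% and 0.14%, respectively. None of the 5 sequences was found in the windows of Cebpa, Cx3cr1, Nlrp3 or Klf4, nor at a second Nlrp3 start of the table (chr11:59542436-59542685). The Tlr2 window held 1 half-site on the opposite strand, 10 bases before the start and under the IgG peak. These are letters in a window and do not show where the receptor was bound. The sequences under the peaks of Cebpa, Tlr4 and Adgre1 themselves were not analysed here.

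Cebpa had the peak closest to a start site among the 8 genes, and that peak was ChIP-specific. The gene is 2636 bp long (RefSeq, chromosome 7, 35119293 to 35121928, mm10). The peak lay inside it, in an exon, with its centre 732 bp downstream of the transcription start site (TSS), and covered 35119876 to 35120174. It was 300 bp long and had an FDR of 0.00478, the lowest among the 6 ChIP-specific peaks of the 8 genes. In the whole ChIP-specific list 3.41% of peaks had an FDR as low, and 12.2% were as long. Exons held 4.52% of the annotated ChIP-specific peaks, and 9.50% had their centre within 1 kb of a TSS.

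IgG peaks lay on both sides of the Cebpa peak. The nearest was 1901 bp away, 1406 bp upstream of the TSS (35117801 to 35117974, 175 bp, FDR 0.0151). Another lay 5056 bp upstream (35114176 to 35114299, FDR 0.014) and the last 23269 bp downstream (35142451 to 35142674, FDR 0.00779). All 3 were intergenic in the authors' annotation. Of all ChIP-specific peaks, 5.04% had an IgG peak as near as that of Cebpa. The ChIP peak thus had no IgG overlap, but it stood in a stretch where the mock pull-down also gave peaks. Over the gene and 500 kb on each side there were 17 ChIP-specific, 5 shared and 20 IgG peaks (shared peaks count once in each antibody's list). Only 1.41% of the 21887 protein-coding genes had as many ChIP-specific and 1.54% as many IgG peaks around them.

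Tlr4, the receptor for bacterial lipopolysaccharide, had 4 ChIP-specific peaks, the most of the 8 genes, and none lay in the gene or at its start. The gene covers 19031 bp (chromosome 4, 66827551 to 66846581). A pair of peaks lay close together, at 66853951 to 66854074 (FDR 0.0103) and 66855451 to 66855724 (FDR 0.0144). The authors' annotation calls both intronic, 25810 and 27385 bp from the TSS of the Ensembl transcript ENSMUST00000147008. In the RefSeq annotation these positions are outside the gene, 7369 and 8869 bp past its end. The class is given as intron without naming a transcript, so whether the intron belongs to a Tlr4 transcript was not checked.

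The other Tlr4 peaks were intergenic and farther away. One lay 24234 bp upstream (66803301 to 66803399), was 100 bp long and had an FDR of 0.0419, a value that 94.2% of the ChIP-specific list matched or bettered. The last lay 146835 bp downstream (66974876 to 66975199), was the longest of the 6 ChIP-specific peaks at 325 bp and had an FDR of 0.0088. The single IgG peak of Tlr4 lay 40522 bp upstream (66786926 to 66787199) and had an FDR printed as 0, as had 17.1% of the IgG list. The ChIP and IgG lists come from separate calls, so their FDR values do not rank peaks across the antibodies. The nearest IgG peaks to the 4 ChIP-specific peaks were 16101 to 68251 bp away.

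Tlr4 has no close neighbour on chromosome 4 in RefSeq. The nearest RefSeq genes are the pseudogenes Gm11220, 102006 bp away on one side, and Hmgb1-rs18, 671971 bp away on the other. The authors' assignment used Ensembl transcripts, and the part of these gaps in the number of peaks assigned to Tlr4 was not tested. Of all protein-coding genes 1.61% were nearest to 4 or more ChIP-specific peaks. Within 500 kb of Tlr4 there were 15 ChIP-specific, 1 shared and 8 IgG peaks, and 2.42% of genes had as many ChIP-specific and 19.9% as many IgG peaks around them.

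Adgre1, the F4/80 antigen of mouse macrophages, had peaks of every kind, all deep in introns. The annotation tables list it under its older symbol Emr1. It is the longest of the 8 genes at 124949 bp (chromosome 17, 57358581 to 57483529), and 8.38% of protein-coding genes are longer. Its ChIP-specific peak lay 80761 bp from the TSS (57439351 to 57439599, 250 bp, FDR 0.00956). A shared peak 53873 bp from the TSS had exactly the same bounds in both lists (57412526 to 57412649, 125 bp), with an FDR of 0.0149 for the ChIP and 0.0164 for IgG. A second IgG peak lay 74486 bp from the TSS (57433151 to 57433249, FDR 0.0364), and 6101 bp from the ChIP-specific peak.

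More peaks lay inside Adgre1 than were assigned to it. By position the gene body held 3 ChIP-specific, 1 shared and 4 IgG peaks, so that each antibody gave 4. The 2 further ChIP-specific peaks lay at 57455551 to 57455799 (FDR 0.0379) and 57477951 to 57478074 (FDR 0.0133). They and the 2 further IgG peaks had been assigned to Vmn2r120, a vomeronasal receptor gene. The nearer end of its RefSeq body is 25253 bp beyond Adgre1. The 2 ChIP-specific peaks were 89639 and 67302 bp from its TSS. The first of these ChIP-specific peaks was separated by only 101 bp from an IgG peak (57455301 to 57455449, FDR 0.00996). It meets the definition of ChIP-specific although a mock peak lay beside it. The FDR values of the pair come from separate calls and do not show which signal was stronger. Within 500 kb of Adgre1 there were 8 ChIP-specific, 1 shared and 5 IgG peaks. As many or more ChIP-specific peaks surrounded 17.1% of genes, and as many or more IgG peaks 36.9%.

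**Figure D1:**
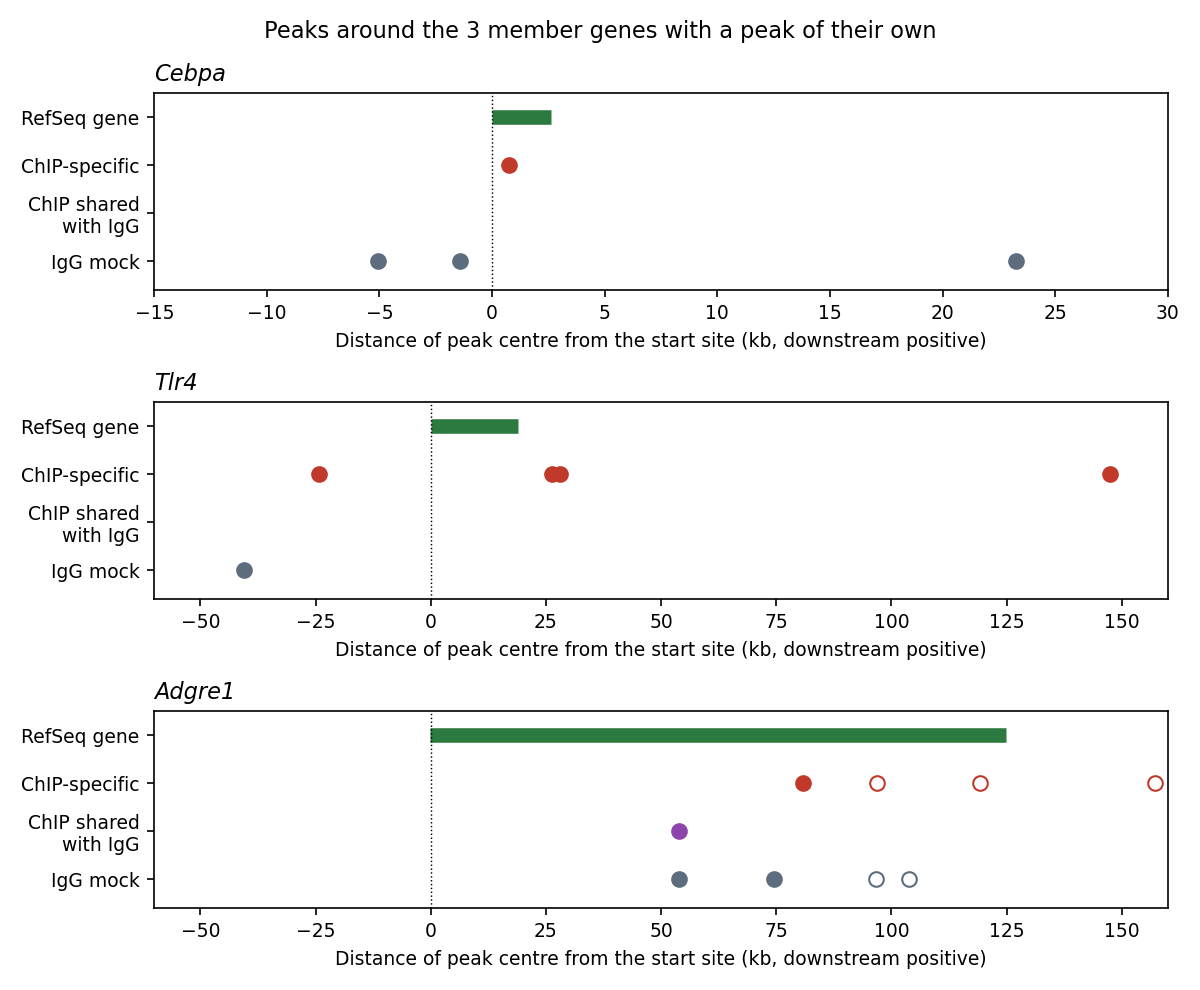
Positions of peaks around Cebpa, Tlr4 and Adgre1, as the distance of each peak's centre from the gene's start site in kb (x axis), in rows for ChIP-specific, shared and IgG mock peaks. The green bar is the RefSeq gene; filled circles are peaks assigned to the gene and open circles peaks assigned to another gene. The Cebpa peak lies in the gene between IgG peaks, the 4 Tlr4 peaks lie outside the gene, and Adgre1 holds 4 peaks of each antibody when shared peaks are counted in both.

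Taking the 3 genes side by side, their 6 ChIP-specific peaks comprised 1 in an exon, 3 in introns and 2 between genes, and 0 at a promoter. These are the authors' classes, and the 3 in introns include the pair that lies past the RefSeq end of Tlr4. The 6 IgG peaks of the 3 genes comprised 2 in introns and 4 between genes, also with 0 at a promoter. Promoters held 5.52% of all annotated ChIP-specific and 5.46% of all annotated IgG peaks. Besides that of Cebpa, the ChIP-specific peaks were 24234 bp or more from a TSS, and 59.2% of the whole list were more than 20 kb away. The 6 peaks had lengths from 100 to 325 bp and FDR values from 0.00478 to 0.0419. None had an FDR printed as 0, as 162 ChIP-specific and 1600 shared peaks of the series did. Of the 7 ChIP peaks at the 3 genes, 1 overlapped an IgG peak, against 26.1% of all ChIP peaks.

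**Figure D2:**
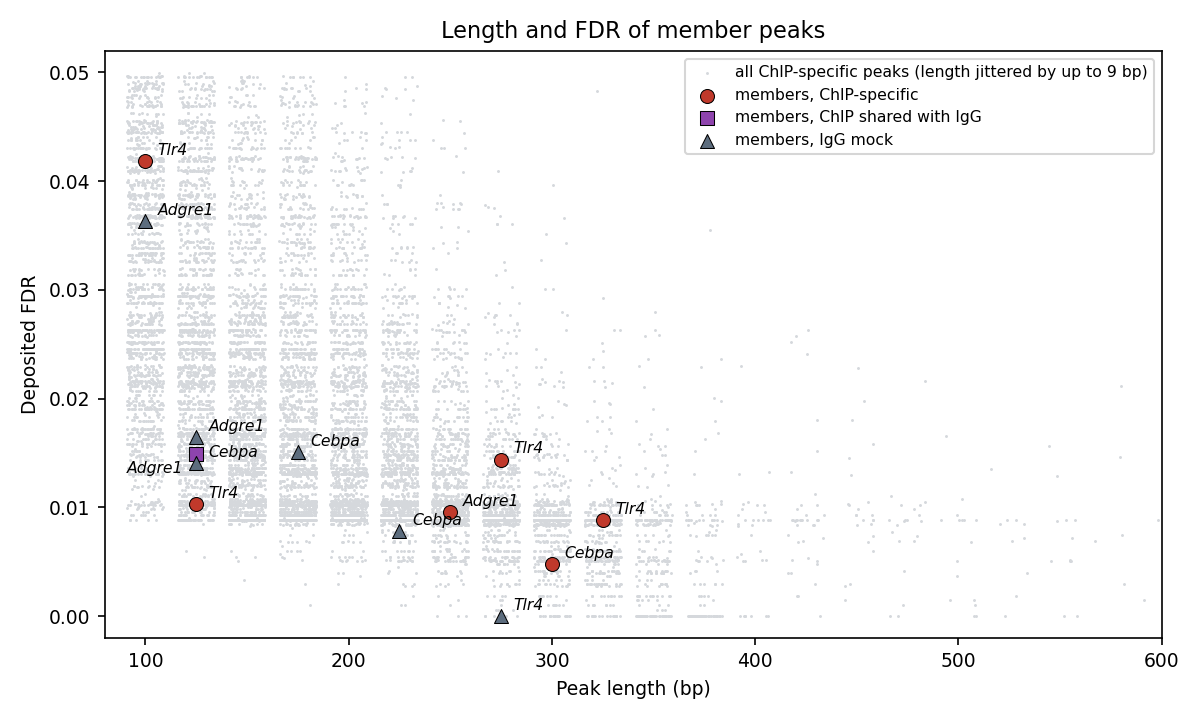
Peak length in bp (x axis) against the deposited FDR (y axis) for the peaks assigned to Cebpa, Tlr4 and Adgre1, over all ChIP-specific peaks in grey (lengths moved at random by up to 9 bp for display; the few peaks longer than 600 bp are not drawn). The ChIP-specific Cebpa peak has the lowest FDR of the red points at 0.00478, and an IgG peak of Tlr4 lies at 0.

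Counted as genes, 3 of 8 were nearest to a ChIP-specific peak, against a background of 17.5% of the protein-coding genes, and 3 of 8 to an IgG peak, against 17.0%. They were the same 3 genes, and 7.99% of all protein-coding genes were nearest to both kinds. A shared peak was assigned to 1 of the 8, against 8.88% of genes. The remaining 5 were nearest to no peak of either antibody, as were 73.4% of all genes. Since the genes were selected on these peaks, nothing is read from these shares. With a peak required in the RefSeq gene body or within 5 kb of it, Cebpa and Adgre1 counted for ChIP-specific peaks, 2 of 8 (16.8% of all genes), and also for IgG peaks (15.9%). Widening this to 50 kb gave 5 of 8 for both (37.2% and 35.0% of all genes), by adding Tlr4, Cx3cr1 and Ccl2 for ChIP-specific peaks, and Tlr4, Ccl2 and Nlrp3 for IgG peaks.

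Cx3cr1, the receptor of the chemokine fractalkine, had no peak assigned to it, and its gene body held none (chromosome 9, 120048683 to 120068296, 19614 bp). The nearest ChIP-specific peak was 20758 bp past the gene's lower coordinate, which is its 3′ side (120027801 to 120027924, 125 bp, FDR 0.0135). The authors' annotation classed it as intronic and gave Xirp1 as its nearest gene, with the peak 4264 bp upstream of that gene's TSS. The nearest IgG peak was 99529 bp away and the nearest shared peak 241983 bp away. Among the 5 genes without a peak of their own, Cx3cr1 thus had the closest ChIP-specific peak. Within 500 kb there were 6 ChIP-specific and 2 IgG peaks, and 28.4% and 75.2% of genes, respectively, had as many or more.

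Ccl2, the chemokine that draws monocytes, also had no peak, and is the shortest of the 8 genes (chromosome 11, 82035577 to 82037452, 1876 bp). It lies in a cluster of chemokine genes, with Ccl7 8259 bp away. The nearest ChIP-specific peak fell in an exon and was assigned to the neighbouring chemokine gene Ccl11 (eotaxin), 4477 bp from that gene's TSS and 24723 bp from Ccl2 (82062176 to 82062424, 250 bp, FDR 0.00928). The nearest IgG peak to it was 40351 bp away. A shared peak with the same bounds in both lists lay 44277 bp from Ccl2 on the other side (81991201 to 81991299), and its FDR was 0.0132 for the ChIP and 0.00618 for IgG. The surroundings of Ccl2 within 500 kb held 11 ChIP-specific, 5 shared and 14 IgG peaks, and 7.42% and 5.57% of genes had as many ChIP-specific and IgG peaks, respectively.

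Nlrp3, the sensor protein of an inflammasome, had no peak in its body or within 5 kb (chromosome 11, 59541569 to 59566955, 25387 bp). The closest peaks were at the promoter of Zkscan17, 35094 bp away for the ChIP (59506251 to 59506474, FDR 0.00749) and 35069 bp away for IgG (59506301 to 59506499, FDR 0.000281), and they overlapped each other. The nearest ChIP-specific peak was 135494 bp away, assigned to Prss38 (59405751 to 59406074, FDR 0.00541). It was the sole ChIP-specific peak within 500 kb, where 93.1% of genes had 1 or more.

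Mmp9, a gelatinase that degrades extracellular matrix, was 60426 bp from the nearest ChIP-specific peak, which lay at the promoter of Pcif1 (chromosome 2, 164879601 to 164879899, 300 bp, FDR 0.00597). The gene itself covers 164940326 to 164955850. The nearest shared peak was 156325 bp away and had an FDR printed as 0. Nos2, the inducible nitric oxide synthase, was the most remote of the 8 from ChIP-specific peaks (chromosome 11, 78920787 to 78960226). The nearest was at the promoter of Nlk (78697301 to 78697574, FDR 0.0105), 223212 bp away, and a shared peak in an intron assigned to Ksr1 was closer at 167949 bp. Both Mmp9 and Nos2 had 3 ChIP-specific and 1 IgG peak within 500 kb, and 63.7% and 90.6% of genes, respectively, had as many or more.

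**Figure D3:**
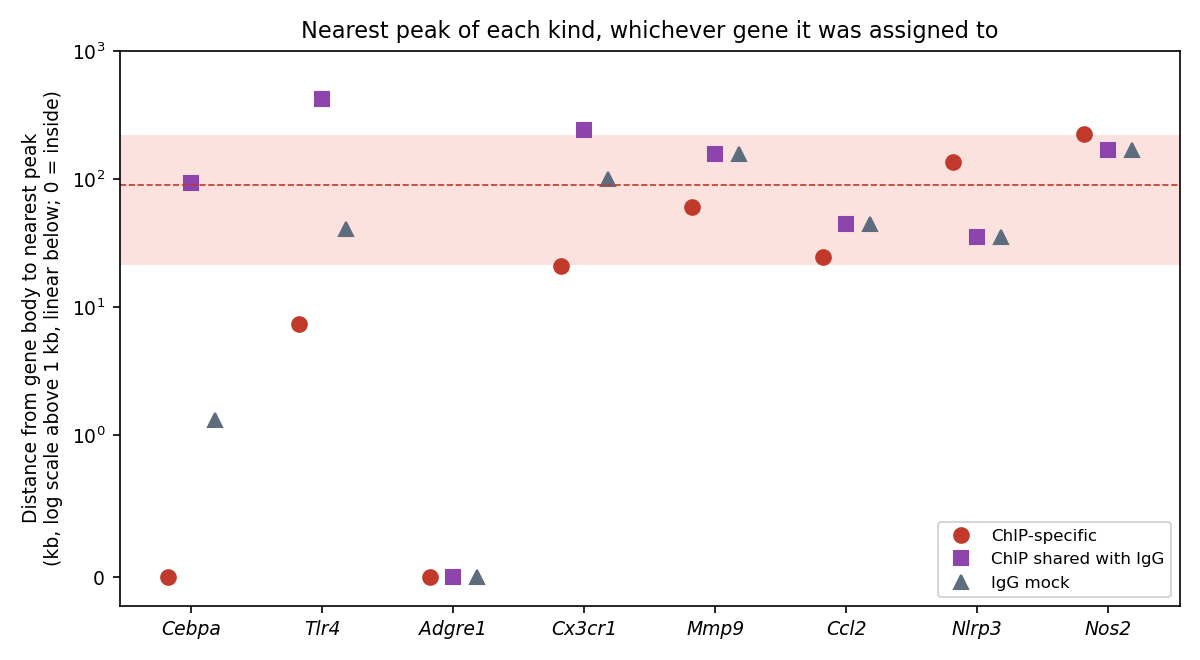
Distance in kb from each gene's RefSeq body to the nearest ChIP-specific (circles), shared (squares) and IgG mock (triangles) peak, whichever gene the peak was assigned to; the y axis is logarithmic above 1 kb and linear below, and 0 means inside the gene. The red band spans the quartiles and the dashed line the median (89718 bp) of the distance to a ChIP-specific peak over 21887 protein-coding genes; Cebpa, Tlr4, Adgre1 and Cx3cr1 lie below the band and Nos2 above it.

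Ordered by the distance to a ChIP-specific peak, the genes ran Cebpa and Adgre1 (inside the gene), Tlr4 (7369 bp), Cx3cr1 (20758 bp), Ccl2 (24723 bp), Mmp9 (60426 bp), Nlrp3 (135494 bp) and Nos2 (223212 bp). Over all protein-coding genes the quartiles were 21242.5 and 218547.5 bp with a median of 89718 bp, so Cx3cr1 and Ccl2 lay on either side of the lower quartile. For Nlrp3 and Nos2 an IgG peak was nearer than a ChIP-specific one, and for Cebpa, Tlr4, Cx3cr1, Mmp9 and Ccl2 the ChIP-specific peak was nearer. Adgre1 held both. The nearest IgG peaks of Nlrp3 and Nos2 overlapped shared ChIP peaks, so a ChIP peak lay about as near. The distances to the shared and the IgG peak were 35094 and 35069 bp for Nlrp3, and 167949 bp for both at Nos2. As there is 1 list per antibody, the order has no error and neighbours in it cannot be compared beyond their values.

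**Figure D4:**
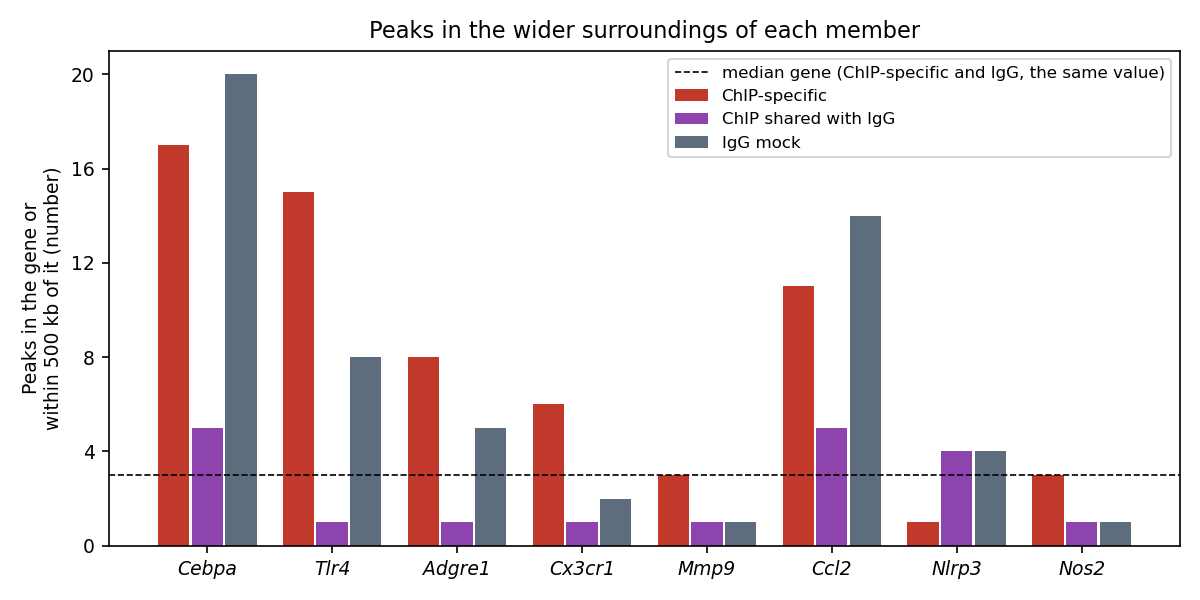
Number of ChIP-specific, shared and IgG mock peaks in each gene or within 500 kb of it (bars from 0; shared ChIP peaks overlap peaks that the IgG bars also count). The dashed line is the median over protein-coding genes, 3 for ChIP-specific as for IgG peaks; Cebpa has 17 and 20, Nlrp3 1 and 4.

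Some other genes had a pattern of peaks like that of Cebpa, Tlr4 or Adgre1. Likeness meant the same numbers of ChIP-specific, shared and IgG-only peaks, the same class of the ChIP-specific peaks and then the closest distance to the TSS, with predicted genes left out. The numbers of Cebpa (1, 0 and 3) were met by 25 genes, 5 of them with an exonic peak. The closest were Tbx20, a T-box transcription factor of the heart, with its peak 103 bp from the TSS, and Smgc, with its peak 2104 bp away. For Tlr4 (4, 0 and 1) there were 13 such genes, and 1 had the same classes, Hsfy2, whose nearest peak was 87177 bp from the TSS. For Adgre1 (1, 1 and 1) there were 71, of which 24 had an intronic ChIP-specific peak, and the closest were Mgat4c (72371 bp) and C8b (39630 bp), a complement component. The likeness is over 2 peak lists and does not extend to expression.

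To place the 8 genes in their pathway, 61 myeloid and inflammatory genes were listed by role, 53 of them not among the 8. Of these 53, 4 were nearest to a ChIP-specific peak (7.55%, against 17.5% of all protein-coding genes), 4 to an IgG peak (7.55%, against 17.0%) and 0 to both (against 7.99%). A shared peak was assigned to 3 of the 53, Klf4, Tlr7 and Cxcl1, against 8.88% of all genes. These 3 also count as nearest to an IgG peak, so the antibodies did not mark separate genes. No peak of either antibody was assigned to 45 of the 53, against 73.4% of all genes. In the gene body or within 5 kb, 2 had a ChIP-specific peak (3.77%, against 16.8%), Mrc1 among them, and 3 an IgG peak (5.66%, against 15.9%). The median distance to a ChIP-specific peak was 144249 bp, against 89718 bp over all genes, and to an IgG peak 190628 bp against 99510 bp. Leaving out the 8 genes, which were selected on their peaks, lowers these shares and lengthens the distances. Over the whole list of 61, ChIP-specific peaks were assigned to 7 genes (11.5%). IgG peaks, including those that overlap shared ChIP peaks, were also assigned to 7 (11.5%). Shared ChIP peaks were assigned to 4 of the 61 and are left out of the ChIP-specific number. The equal shares therefore do not compare the antibodies. The median distances were 118130 bp to a ChIP-specific and 167949 bp to an IgG peak.

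The groups by role hold 5 to 11 genes, too few to set against the 17.5% of all genes nearest to a ChIP-specific peak and the 73.4% nearest to none. By role, the further transcription factors included Klf4, a factor of monocyte differentiation, which had a shared promoter peak (chromosome 4, 55532301 to 55532874, ChIP FDR printed as 0). Its upstream sequence is given above. Cebpb, Cebpe, Spi1, Irf8 and Gfi1 had none. Among 8 further pattern recognition receptors 0 had a ChIP-specific peak. Tlr7 had a shared intronic peak with the same bounds in both lists (X, 167329701 to 167330074), and Tlr2 had an IgG peak at its promoter (chromosome 3, 83841526 to 83841824, FDR printed as 0), 238326 bp from any ChIP peak.

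Of 5 further inflammasome genes, 1 had a ChIP-specific peak, Casp1, which encodes the protease that matures IL-1β, with an intergenic peak 53192 bp upstream (chromosome 9, 5245201 to 5245449, FDR 0.0213). Of 8 further surface markers and growth factor receptors, 2 did. Mrc1, the macrophage mannose receptor, had an intronic peak 10608 bp from the TSS (chromosome 2, 14239851 to 14240149, 300 bp, FDR 0.00788), and Csf3r, the receptor for G-CSF, an intergenic one 16000 bp upstream (chromosome 4, 126008476 to 126008624, FDR 0.00887). The nearest IgG peaks to these were 184026 and 108901 bp away. Of 8 further chemokines and receptors 0 had a ChIP-specific peak, and Cxcl1 had a shared one 9079 bp upstream (chromosome 5, 90881951 to 90882374). The 6 adaptors and NF-κB genes and the 11 further effectors, among them Tnf, Il6, Arg1 and Ptgs2, were nearest to 0 peaks of either antibody.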

How the data were processed

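Reads were aligned to mm10, and BWA and HOMER are named, per the submitters' processing notes, without versions. How peaks were called and the ChIP libraries joined is not given in the sources used here. Each peak of the deposited lists has a length, a multiple of 25 bp, and the authors' FDR (a q-value) to 6 decimals, under 0.05 throughout. The score in the deposited HOMER tables equals the length. Positions are those of the HOMER tables. They span 1 bp less than the stated lengths, so positions and gaps may be off by 1 bp. Class, TSS distance (negative upstream) and nearest gene are the authors'.

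Overlaps, distances and counts were computed in Python 3.11.15 (numpy 2.4.6, pandas 2.3.3), and the overlap code was tested on simulated data. Gene bodies, older symbols and promoter sequences came from RefSeq (GRCm38.p6). Backgrounds are over 21887 protein-coding genes. The 8 genes, the list of 61 and the alternatives were chosen with earlier results of these data known. Named were the 8 genes, the listed genes with a ChIP-specific peak and the genes most alike in peaks; Klf4, Tlr2, Tlr7, Cxcl1 and the listed genes named as having no peak were named after their values were seen. A result that this rule names is not reported here. No test was made, since members were chosen by their peaks and the lists hold no value per library.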

Additional observations from a re-analysis of the deposited data

How the results depend on the processing

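Of 18 alternatives over 7 counts, 15 stayed within 1.5 times the main count. For the 61 listed genes the main counts were those with symbols as given, 6 for ChIP-specific and 6 for IgG peaks, and not the 7 reported above. The 3 of 8 genes with a ChIP-specific peak stayed 3 with an FDR of 0.01 or less, within 100 kb of the TSS, with an IgG overlap of less than 50% allowed, and with no IgG peak allowed within 1 kb. The 3 of 8 with an IgG peak became 2 with an FDR of 0.01 or less, as both IgG peaks of Adgre1 lie above it, and stayed 3 within 100 kb. With symbols exactly as in the tables (chosen after seeing the data), both numbers were 2, as Adgre1 is listed as Emr1. The number of ChIP peaks of the 8 genes that overlapped an IgG peak was 1 and became 0 with an FDR of 0.01 or less in both lists, where 3 of the 7 ChIP peaks were left. Genes with a peak in or near the body numbered 2 with a 5 kb window and 5 with a 50 kb window, for ChIP-specific and for IgG peaks. Of the 61 listed genes, 6 had a ChIP-specific peak with symbols as given, and 4 with symbols as given and an FDR of 0.01 or less. Shares over all protein-coding genes are not given for the limits on FDR, TSS distance or IgG overlap and nearness. The counts under those limits, for the 8 genes and the 61, therefore have no background beside them. With older symbols matched as well, which adds Adgre1, the number without the FDR limit was 7. The FDR limit was not applied with older symbols, although the ChIP-specific peak of Adgre1 has an FDR of 0.00956. No paired analysis was possible because each antibody has 1 list and the lists carry no replicate. For the same reason no library could be left out. The depth behind a peak is unknown, so a gene without a peak had none called, which does not show that Nr1d1 was absent.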
